A study of Mus musculus with 4 samples.

Results

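The erythroid hemoglobin transcripts were followed as 7 genes of the count table, Hba-a1, Hba-a2, Hbb-b1, Hbb-b2, Alas2, Slc4a1 and Epb4.2, chosen by name out of 47729 listed genes. All 7 were found in the table, had a count in each of the 4 libraries and passed the filter on low counts. The 4 libraries were made from sorted CD25+YFP+ Treg cells of female C57BL/6 mice, 2 of the genotype Tfrc +/+ Foxp3 YFP-Cre/+ (WT) and 2 of the genotype Tfrc fl/fl Foxp3 YFP-Cre/+ (called TfR1-deficient), with no treatment named for either group. In both genotypes the Foxp3 locus drives the YFP-tagged Cre, and 1 of the 2 X chromosomes of these heterozygous females carries it, so that YFP stands for Cre and the deletion of floxed Tfrc is limited to cells that express it. The labels give the spleen as the tissue, a legend of the study gives spleens and lymph nodes, and the number of mice per library was not given in the sources used here. Mice of the study were 6 to 8 weeks old unless they were Tfrc-deleted males, with no age tied to these libraries. The libraries are described as biological replicates. Several sequencing platforms are named without being tied to a library, so a sequencing batch could not be tested.

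Red blood cells carry oxygen with hemoglobin, a tetramer of alpha and beta globin chains that each hold a heme group. Erythroid precursors fill their cytoplasm with globin mRNA, make heme through the erythroid form of aminolevulinate synthase, and build a membrane around the anion exchanger band 3 and the skeletal protein 4.2. The spleen of a mouse holds circulating red cells, erythroid precursors and red pulp macrophages that take up old red cells and recycle their iron. The comparison with macrophage genes such as Csf1r, the receptor for the macrophage growth factor, asked whether the erythroid transcripts varied between libraries together with macrophage transcripts.

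The libraries held 10841939 to 17278448 counts. Tfrc was counted 620 and 577 times in the WT libraries and 973 and 661 times in the libraries labelled TfR1-deficient (50.1, 53.2, 56.3 and 49.1 CPM, which are counts per 1000000 counts of the library), and its log2 fold change was -0.01 (SE 0.16, Benjamini-Hochberg adjusted p = 0.999, quasi-likelihood test of edgeR). The count over the whole gene therefore did not separate the genotypes, and every genotype below is the one on the label. Foxp3, the defining factor of Treg cells, was at 192, 128, 122 and 116 CPM in WT replicates 1 and 2 and TfR1-deficient replicates 1 and 2. None of the 6 Treg marker genes was at 0 in a library, and their summed level ran from 2903 to 4069 CPM.

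The adult alpha globin genes Hba-a1 and Hba-a2 lie on chromosome 11 at 32283672 to 32284486 and 32296492 to 32297310 of GRCm38.p6 in RefSeq. The adult beta globin genes are named Hbb-b1 and Hbb-b2 in the symbols matched to the table, and RefSeq has genes at their positions under the names Hbb-bs (chromosome 7, 103826523 to 103827928) and Hbb-bt (chromosome 7, 103812524 to 103813923). The 100 bases before the start of each globin gene are shown 5′ to 3′ from RefSeq because they carry what the 4 genes share and where the copies differ. The capitals mark every match, on either strand, to the motif ATATAA, a form of the TATA box, to CACCC, the core of the element that Klf1 binds, or to CCAAT, the CCAAT box. The stretches lie at chr11:32283572-32283671 and chr11:32296392-32296491 on the plus strand and at chr7:103827929-103828028 and chr7:103813924-103814023 on the minus strand.
Hba-a1: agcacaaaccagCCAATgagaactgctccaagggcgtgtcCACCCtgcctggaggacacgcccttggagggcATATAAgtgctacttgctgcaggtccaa
Hba-a2: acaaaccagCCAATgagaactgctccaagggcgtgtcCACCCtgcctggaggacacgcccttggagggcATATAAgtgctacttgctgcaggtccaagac
Hbb-b1: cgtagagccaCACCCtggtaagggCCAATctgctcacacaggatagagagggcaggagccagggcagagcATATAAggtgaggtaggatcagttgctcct
Hbb-b2: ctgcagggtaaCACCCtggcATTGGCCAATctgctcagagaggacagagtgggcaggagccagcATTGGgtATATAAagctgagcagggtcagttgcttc
Each of the 4 stretches held ATATAA and CACCC once and CCAAT at least once, with 3 matches of CCAAT in Hbb-b2, 2 of which run into each other. Of 32851 RefSeq promoters, 3.74% held ATATAA in the same window, 27.2% held CACCC and 18.9% held CCAAT. Another motif, GATAA, was in 8.55% of these windows and had no match in the 4 stretches. The 2 alpha stretches were identical over the 97 bases that they share, their annotated starts being offset by 3 bases, while the beta stretches were identical at 77 of 102 aligned positions.

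The gene bodies of the copies are also alike, which limits how far reads can be assigned to 1 of them. Of the 50-base stretches in the transcripts of GENCODE vM1, 68.4% of those of Hba-a1 also occur in Hba-a2 and 87.4% of those of Hba-a2 occur in Hba-a1. For the beta genes, 47.9% of those of Hbb-b1 occur in Hbb-b2 and 58.3% of those of Hbb-b2 occur in Hbb-b1. How multi-mapping reads were counted was not given in the sources used here, so levels of single globin copies are uncertain and the sum of a pair is the safer value.

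Hemoglobin transcripts were detected in all 4 libraries and were highest in TfR1-deficient replicate 2. Summed over the 7 genes, they had 383 and 1831 counts in WT replicates 1 and 2 and 1159 and 6751 counts in TfR1-deficient replicates 1 and 2. This was 31.0 CPM (95% Clopper-Pearson interval 27.9 to 34.2), 169 CPM (161 to 177), 67.1 CPM (63.3 to 71.1) and 502 CPM (490 to 514), or 0.00310%, 0.0169%, 0.00671% and 0.0502% of all counts. These intervals cover counting error only, since reads without molecular identifiers are not independent molecules. No 2 of the 4 intervals overlapped, and the genotypes alternated in the order, with 1 library of each genotype among the higher pair and 1 among the lower pair. In bulk RNA, fewer cells of a type and less RNA per cell cannot be told apart.

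**Figure D1:**
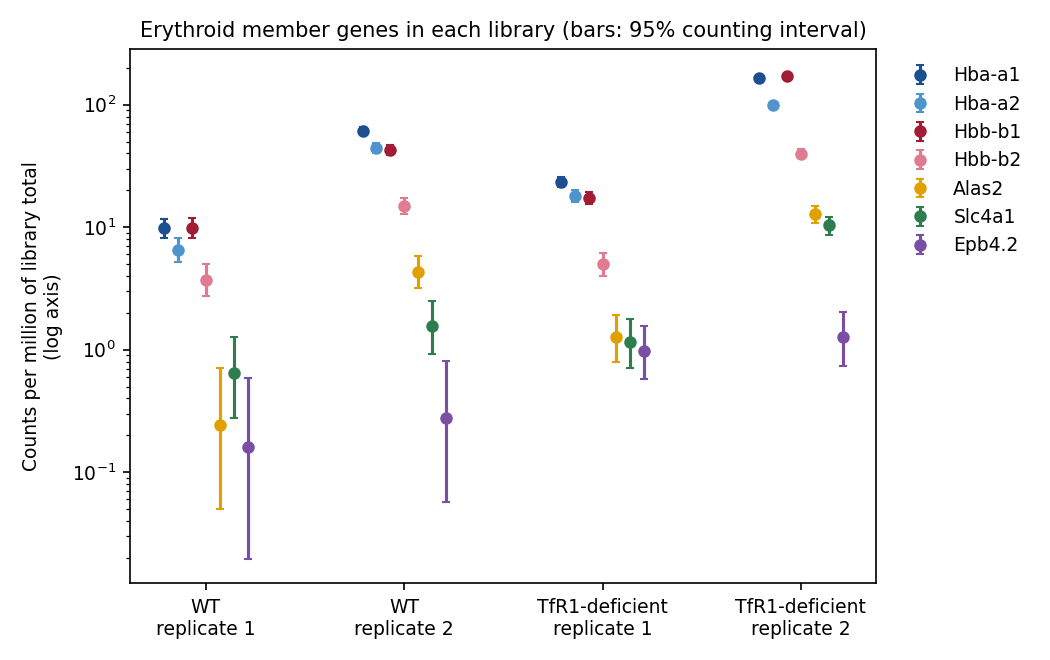
Level of each of the 7 genes in each library, in CPM on a log axis, with bars for the 95% Clopper-Pearson counting interval. The 4 globin genes lie above Alas2, Slc4a1 and Epb4.2 in every library, and all 7 genes are lowest in WT replicate 1 and highest in TfR1-deficient replicate 2.

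Hba-a1, the alpha globin gene with more counts, was at 9.79 and 61.1 CPM in WT replicates 1 and 2 and at 23.3 and 166 CPM in TfR1-deficient replicates 1 and 2. Hba-a2, which encodes the same kind of chain, was at 6.55, 44.3, 18.1 and 99.3 CPM in the same order of libraries. Within each genotype, replicate 2 was the higher library for both genes, and WT replicate 2 lay above TfR1-deficient replicate 1. Hbb-b1, the more abundant of the 2 beta globin genes, was at 9.87, 42.4, 17.2 and 173 CPM. Hbb-b2, its neighbour on chromosome 7, was at 3.72, 14.9, 4.98 and 39.9 CPM. The genotypes therefore overlapped for all 4 globin genes, and the counting intervals of Hbb-b2 in WT replicate 1 (2.72 to 4.96 CPM) and TfR1-deficient replicate 1 (3.98 to 6.15 CPM) overlapped as well.

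Alas2, the erythroid enzyme of the first step of heme synthesis, lies on the X chromosome at 150547417 to 150570622 and had 3, 47, 22 and 171 counts in WT replicates 1 and 2 and TfR1-deficient replicates 1 and 2 (0.243, 4.34, 1.27 and 12.7 CPM). Slc4a1, the gene of the anion exchanger band 3 (chromosome 11, 102348820 to 102365281), had 8, 17, 20 and 139 counts (0.647, 1.57, 1.16 and 10.3 CPM). Alas2 followed the library order of the globin genes, and so did Slc4a1, although the counting intervals of its lower 3 libraries overlapped. Epb4.2, the gene of protein 4.2 of the membrane skeleton (chromosome 2, 121017891 to 121036877, Epb42 in RefSeq), had 2, 3, 17 and 17 counts (0.162, 0.277, 0.984 and 1.26 CPM). It was the only member of the 7 with each library labelled TfR1-deficient above each WT library. A count of 3 corresponds to 0.174 to 0.277 CPM in these libraries, so the 2 WT values of Epb4.2 and the value of Alas2 in WT replicate 1 rest on 3 counts or fewer.

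Per kilobase of exon in GENCODE vM1, Hba-a1 was at 12.1, 75.2, 28.7 and 204 CPM and Hbb-b1 at 11.4, 49.2, 20.0 and 200 CPM. On the same scale, Alas2 was at 0.101, 1.80, 0.530 and 5.29 CPM and Slc4a1 at 0.132, 0.321, 0.237 and 2.11 CPM. The globin genes thus exceeded the other members per length in every library. Among 18587 genes ranked by this level, Hba-a1 stood at ranks 4595 and 927 in WT replicates 1 and 2 and at ranks 2484 and 277 in TfR1-deficient replicates 1 and 2. Hbb-b1 stood at ranks 4727, 1464, 3270 and 287.

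Of the 7 members, 6 had the same order of the 4 libraries by CPM, from TfR1-deficient replicate 2 through WT replicate 2 and TfR1-deficient replicate 1 down to WT replicate 1. Among the 12536 genes tested, 307 (2.45%) had this order. The 6 members include both pairs of globin copies, which are alike in sequence, so their orders are not separate observations. Epb4.2 was the exception, with TfR1-deficient replicate 1 above WT replicate 2. Between replicates of a genotype, the sum was 5.45-fold higher in WT replicate 2 than in WT replicate 1 (interval 4.88 to 6.10) and 7.48-fold higher in TfR1-deficient replicate 2 than in TfR1-deficient replicate 1 (7.03 to 7.97). Between the genotypes, the ratio of TfR1-deficient to WT was 2.17 for the libraries numbered 1 and 2.97 for those numbered 2. No pairing by number was given in the sources used here, and the other pairings differed in direction. TfR1-deficient replicate 2 over WT replicate 1 gave 16.2, and TfR1-deficient replicate 1 over WT replicate 2 gave 0.397. From the lowest to the highest library, Alas2 spanned 52.4-fold, the 4 globin genes 10.7-fold to 17.5-fold, Slc4a1 16.0-fold and Epb4.2 7.81-fold.

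Csf1r followed another order of the libraries. It had 1513 and 21 counts in WT replicates 1 and 2 and 86 and 5087 counts in TfR1-deficient replicates 1 and 2 (122, 1.94, 4.98 and 378 CPM). WT replicate 1, the library with the least hemoglobin transcript, was thus the second highest for Csf1r, and WT replicate 2, the second highest for hemoglobin transcript, was the lowest. Csf1r was 63.2-fold higher in WT replicate 1 than in WT replicate 2, while the summed erythroid genes differed between these libraries in the opposite direction. In the libraries labelled TfR1-deficient, both were higher in replicate 2, Csf1r by 76.0-fold. The 7 erythroid genes had 0.253 and 87.2 counts per count of Csf1r in WT replicates 1 and 2, and 13.5 and 1.33 in TfR1-deficient replicates 1 and 2.

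**Figure D2:**
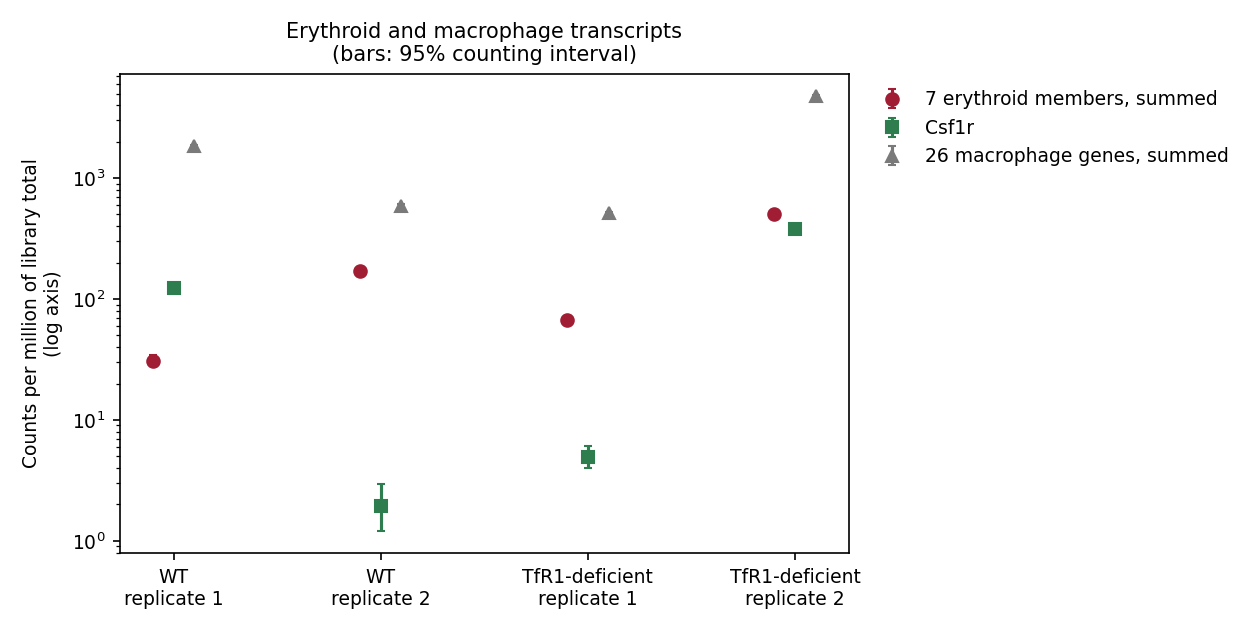
Summed level of the 7 erythroid genes, level of Csf1r and summed level of 26 macrophage genes in each library, in CPM on a log axis, with bars for the 95% Clopper-Pearson counting interval (smaller than the symbol where not visible). In WT replicate 1 the erythroid sum is the lowest of the 4 libraries at 31.0 CPM while Csf1r is at 122 CPM, and in WT replicate 2 the erythroid sum is 169 CPM while Csf1r is at 1.94 CPM.

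The rest of the macrophage list divided the libraries as Csf1r did. All 26 macrophage genes were higher in WT replicate 1 and TfR1-deficient replicate 2 than in both other libraries, as were 24.2% of all tested genes and 0 of the 7 erythroid members. Vcam1, an adhesion molecule of red pulp macrophages, had 3335, 38, 76 and 11630 counts in WT replicates 1 and 2 and TfR1-deficient replicates 1 and 2. Slc40a1, the iron exporter ferroportin, had 2535, 110, 203 and 7506 counts. Ctsd, Axl and Lgmn, which are not particular to macrophages, varied less, with 5872, 4814, 6920 and 8158 counts for the lysosomal protease Ctsd. The receptor gene Axl had 2261, 630, 472 and 4610 counts, and the protease gene Lgmn 1529, 520, 694 and 4411. The summed list was at 1836, 592, 516 and 4794 CPM, and at 1054, 41.8, 48.2 and 3517 CPM without Ctsd, Axl and Lgmn. There were 4 of the 26 genes at 0 in WT replicate 2 and 2 in TfR1-deficient replicate 1. WT replicate 2 and TfR1-deficient replicate 1, which were close in the summed list, differed 2.52-fold in the erythroid sum (interval 2.34 to 2.71), with WT replicate 2 higher. They were not close in Csf1r, which was 2.57-fold higher in TfR1-deficient replicate 1.

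Platelet and granulocyte genes gave few counts. The 8 platelet genes summed to 2.18 to 4.80 CPM and were not highest in the library with most hemoglobin transcript, with Gp1bb and Gp6 at 0 in every library and Pf4 at 0 in all but WT replicate 2, where it had 1 count. The 7 granulocyte genes summed to 0.0922 to 0.232 CPM in the first 3 libraries and to 3.12 CPM in TfR1-deficient replicate 2. Of their 42 counts in that library, 36 were of Mpo and 4 of Elane. S100a8, S100a9 and Camp were at 0 in every library. The 6 B cell genes summed to 31.6 to 43.5 CPM, with the highest value in WT replicate 2. The part of any other cell type in the erythroid counts was not tested.

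The share of alpha chains among adult globin counts was not the same in all libraries. Hba-a1 and Hba-a2 together took 54.6% of the counts of the 4 globin genes in WT replicate 1 (95% Clopper-Pearson interval 49.4 to 59.7, 202 of 370 counts) and 64.7% in WT replicate 2 (62.5 to 67.0, 1142 of 1764). The share was 65.1% in TfR1-deficient replicate 1 (62.2 to 67.9, 716 of 1100) and 55.5% in TfR1-deficient replicate 2 (54.3 to 56.7, 3566 of 6424). WT replicate 1 and TfR1-deficient replicate 2, the libraries with more macrophage transcript, had the lower share, and their intervals did not overlap those of the other 2 libraries. These intervals cover counting error only. The level of the share can also depend on how multi-mapping reads of the copies were counted, which was not given. The 2 genotypes overlapped in this share. With 2 libraries against 2, an exact permutation test cannot reach a p of 0.05, so none was run. Within the pairs of copies, Hba-a1 took 59.9%, 58.0%, 56.3% and 62.5% of the alpha counts and Hbb-b1 took 72.6%, 74.0%, 77.6% and 81.2% of the beta counts.

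**Figure D3:**
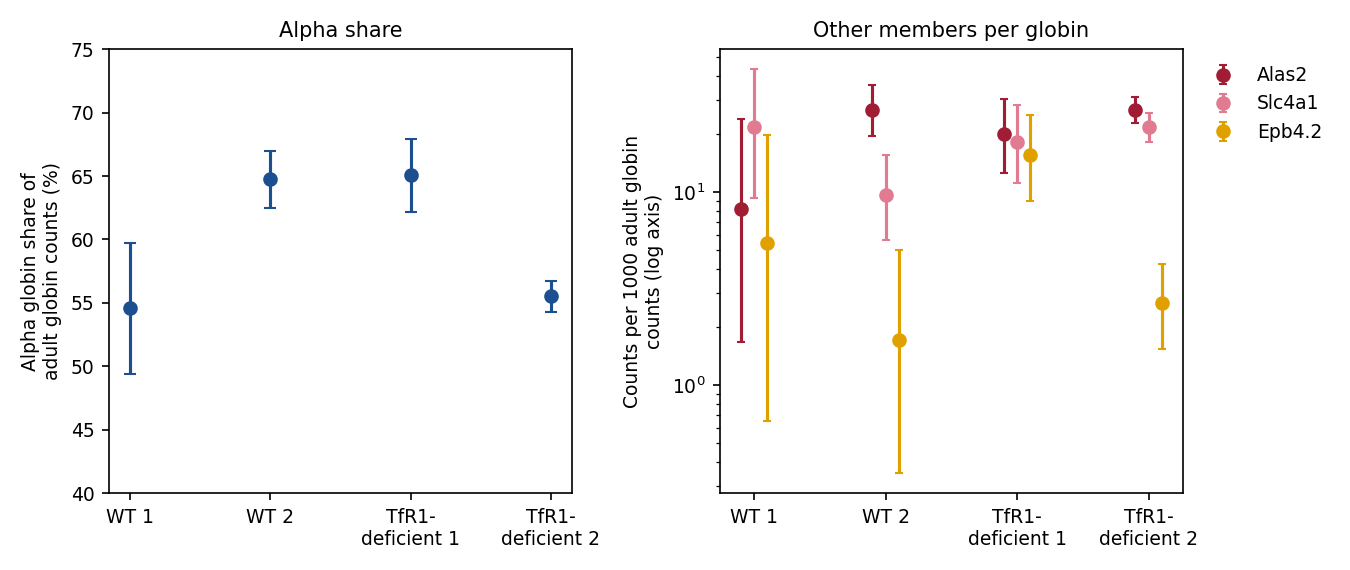
The left panel plots the alpha globin share of adult globin counts in percent (axis from 40 to 75) and the right panel the counts of Alas2, Slc4a1 and Epb4.2 per 1000 adult globin counts on a log axis, by library, with 95% Clopper-Pearson counting intervals. The alpha share is 54.6% and 55.5% in WT replicate 1 and TfR1-deficient replicate 2 and 64.7% and 65.1% in the other 2 libraries, and Epb4.2 per globin is highest in TfR1-deficient replicate 1.

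The other members were also set against globin. There were 8.11 counts of Alas2 per 1000 adult globin counts in WT replicate 1 (interval 1.66 to 23.9) and 26.6 in WT replicate 2 (19.5 to 35.6). In the libraries labelled TfR1-deficient there were 20.0 (12.5 to 30.4) and 26.6 (22.7 to 31.0). Slc4a1 had 21.6, 9.64, 18.2 and 21.6 counts per 1000, and WT replicate 2 (5.60 to 15.5) lay below TfR1-deficient replicate 2 (18.2 to 25.6). Epb4.2 had 5.41, 1.70, 15.5 and 2.65 counts per 1000, with TfR1-deficient replicate 1 (8.97 to 24.9) above WT replicate 2 (0.350 to 4.98) and TfR1-deficient replicate 2 (1.54 to 4.24).

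Between the genotypes, none of the 7 members passed the test at an adjusted p of 0.05 in edgeR, where 0% of the 12536 tested genes did. All 7 log2 fold changes were above 0, with a median of 1.57 against 0.01 over all tested genes, and their standard errors ran from 0.79 to 1.47. Of the 26 macrophage genes, 25 were tested, and all 25 were also above 0, with a median of 1.62 and 0 adjusted calls. The part of macrophage RNA in the members' values was not tested. At an unadjusted p under 0.05 and a log2 fold change of at least 0.5 in edgeR, 1 member was higher in the libraries labelled TfR1-deficient, beside 200 of all tested genes (1.60%), and 0 members were lower, beside 311 genes (2.48%). That member was Epb4.2, with a log2 fold change of 2.28 (SE 0.79), an unadjusted p of 0.032 and an adjusted p of 0.911 in edgeR. Its means were 0.219 ± 0.0813 CPM in WT and 1.12 ± 0.198 CPM in TfR1-deficient libraries (SD, n = 2 each). Epb4.2 had 2 and 3 counts in WT and 17 in each library labelled TfR1-deficient. It thus passed the filter on low counts only through the libraries where it was high. Its unadjusted call and its separation of the genotypes are therefore a description and not support for a difference. A level in each library labelled TfR1-deficient above each WT library was found for 1 of the 7 members and for 16.0% of all tested genes.

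Hba-a1 averaged 35.4 ± 36.3 CPM in WT and 94.5 ± 101 CPM in TfR1-deficient libraries (SD, n = 2 each), and its log2 fold change was 1.37 (SE 1.15, adjusted p = 0.950 in edgeR). Hbb-b1 averaged 26.1 ± 23.0 CPM and 94.9 ± 110 CPM, with a log2 fold change of 1.82 (SE 1.17, adjusted p = 0.934 in edgeR). The SD was close to the mean or above it in both genotypes. Hba-a2, Hbb-b2, Alas2 and Slc4a1 had log2 fold changes of 1.16, 1.22, 1.57 and 2.32, with adjusted p-values of 0.911 to 0.954 in edgeR. Without TfR1-deficient replicate 2, the log2 fold changes turned to -0.63 for Hba-a1, -0.52 for Hba-a2, -0.63 for Hbb-b1, -0.93 for Hbb-b2 and -0.86 for Alas2, that of Slc4a1 was 0.04 and that of Epb4.2 was 2.10. DESeq2 called 0 members at an adjusted p of 0.05, where it called 44 of 10105 genes (0.435%), and it gave Epb4.2 no adjusted p. At an unadjusted p under 0.05 and a log2 fold change of at least 0.5, it called 1 member higher, Slc4a1, and 206 of 12536 genes (1.64%). With no filter on low counts, edgeR called 5 of the 7 members higher in the libraries labelled TfR1-deficient, and 167 of all 22368 genes (0.747%). These members were Hba-a1, Hba-a2, Hbb-b1, Hbb-b2 and Slc4a1, with adjusted p-values from 1.92e-13 to 0.046 in edgeR. In that fit the SE of Hbb-b1 was 0.22, against 1.17 with the filter. Its CPM differed by log2 ratios of 2.10 and 3.32 between replicates of WT and of TfR1-deficient. The p-values without the filter therefore leave out much of the spread between replicates.

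**Figure D4:**
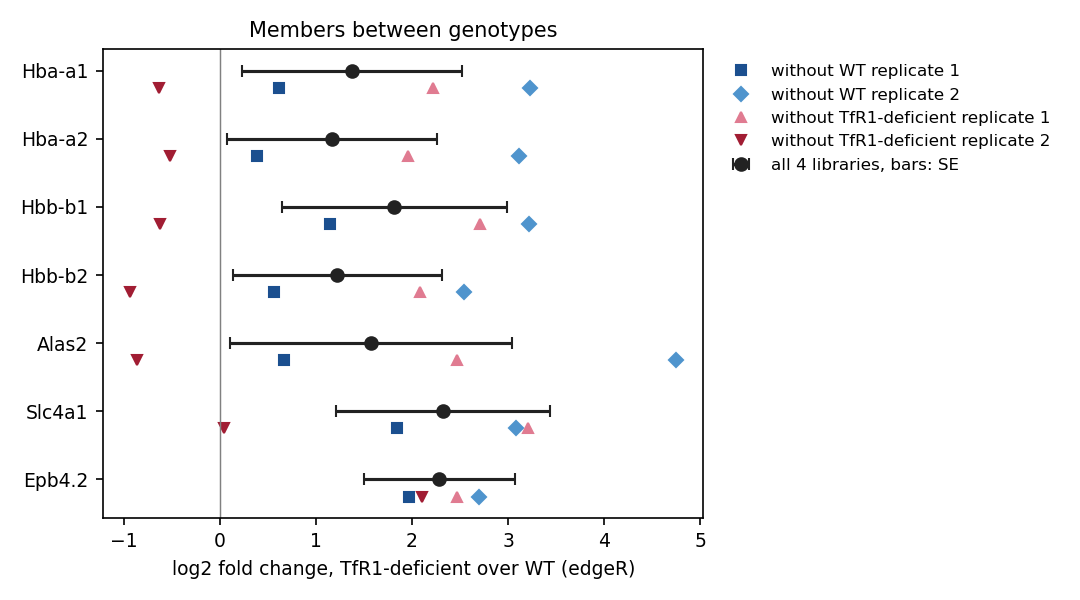
Log2 fold change of each of the 7 genes, TfR1-deficient over WT, from edgeR with all 4 libraries (black, bars for the SE) and with each library left out in turn (coloured symbols below each black point). Without TfR1-deficient replicate 2, 5 of the 7 values lie below 0, from -0.52 to -0.93, and with any other library left out all 7 are above 0.

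Beyond the members, 48 other genes of red cells and their precursors were listed, 45 of which were matched in the table. Of these, 30 had at least 10 counts in a library, 11 had fewer and 4 had none. The embryonic globin genes Hba-x, Hbb-y and Hbb-bh1 and the globin gene Hbb-bh2 were at 0 in every library, which allows up to 0.174 to 0.277 CPM each. The theta globin genes Hbq1a and Hbq1b had 1 and 4 counts in TfR1-deficient replicate 2 and 0 in the other libraries. In edgeR 24 of the 45 genes were tested, 16 had a log2 fold change above 0, with a median of 0.15, and 0 passed at an adjusted p of 0.05. At an unadjusted p under 0.05 and a log2 fold change of at least 0.5 in edgeR, 2 genes were higher, beside 1.60% of all tested genes. These were Fech (0.77, SE 0.23, adjusted p = 0.911 in edgeR), which inserts iron into heme, and Car1 (2.37, SE 0.63, adjusted p = 0.911 in edgeR), a red cell carbonic anhydrase. Car1 had 7 and 3 counts in WT and 37 and 33 in TfR1-deficient libraries. It thus passed the filter only through the libraries where it was high, and its call is not support for a difference.

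The library order of the globin genes was shared by 3 of the 30 genes with at least 10 counts, Ermap and Bpgm among them, against 2.45% of all tested genes. Ermap, a membrane protein of erythroid cells, had 1, 4, 3 and 40 counts in WT replicates 1 and 2 and TfR1-deficient replicates 1 and 2. It reached 10 counts only in TfR1-deficient replicate 2, the highest library of this order, and was not among the tested genes. The shares therefore come from genes kept by different filters. Klf1, the transcription factor that drives beta globin, had 1, 4, 11 and 23 counts, and Trim10 had 1, 1, 3 and 40. The water channel gene Aqp1 had 1, 2, 12 and 25 counts. By CPM these 3 were also lowest in WT replicate 1 and highest in TfR1-deficient replicate 2. Rhd, of the Rh blood group complex, had 2, 1, 9 and 10 counts and Car1 had 7, 3, 37 and 33. For Rhd and Car1, as for Klf1, Trim10, Aqp1 and Epb4.2, the genotypes did not overlap by CPM. Of the 30 genes, 11 had each library labelled TfR1-deficient above each WT library by CPM of library totals, as had 18.9% of all tested genes on that scale. These shares cannot be compared directly, because the genes were kept by different filters. Rhd, Klf1, Trim10, Aqp1 and Car1 reached 10 counts only in libraries labelled TfR1-deficient, where they were high. Of these, Rhd, Klf1, Trim10 and Aqp1 were not among the tested genes.

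The division of the libraries seen in all macrophage genes was found in 7 of the 30 (23.3%), close to the 24.2% of all tested genes. Among these 7, Epor, the erythropoietin receptor, had 26, 1, 11 and 89 counts, and Hemgn, a nuclear protein of blood progenitors, had 18, 1, 3 and 28. Blvrb, an enzyme of heme breakdown, had 122, 55, 135 and 238. For these 3 genes, WT replicate 1, the library lowest in globin, was the second highest. Sptb, the beta spectrin, had 15, 31, 57 and 19 counts, Icam4 had 12, 17, 5 and 10, Nfe2 18, 24, 17 and 33, Zfpm1 28, 15, 44 and 30, and Car2 64, 86, 157 and 294.

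**Figure D5:**
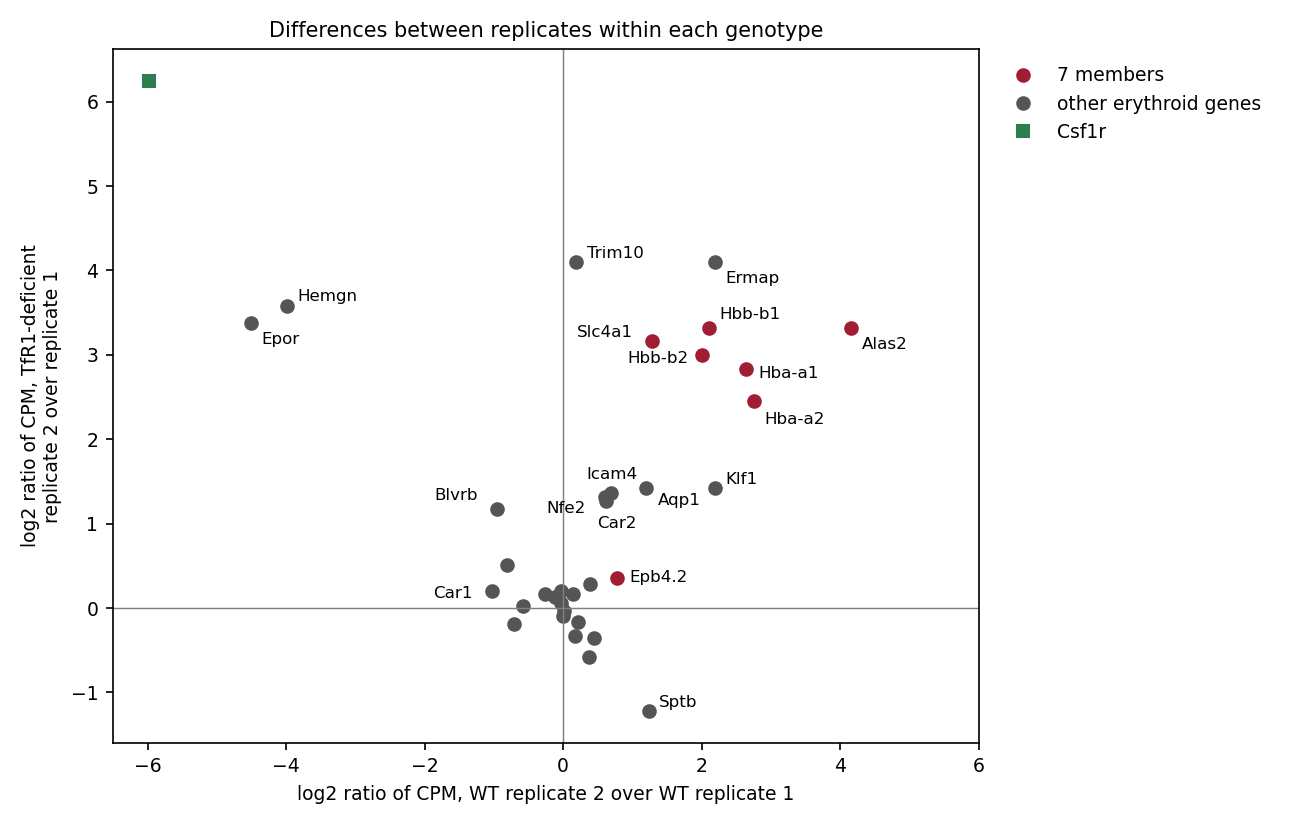
For erythroid genes with at least 10 counts in a library, the log2 ratio of CPM between WT replicate 2 and WT replicate 1 (x axis) against that between TfR1-deficient replicate 2 and replicate 1 (y axis). Not all listed genes are drawn. The 7 members lie in the upper right, Csf1r, Epor and Hemgn in the upper left, and most heme synthesis genes near 0 on both axes.

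Listed heme synthesis and mitochondrial iron import genes other than Alas2 showed no such spread. Alad, Uros, Urod, Cpox, Ppox and Fech, and the mitochondrial carriers Slc25a37 and Slc25a38, spanned only 1.11-fold to 1.90-fold from the lowest to the highest library, against 52.4-fold for Alas2, the erythroid form of the first enzyme. Gypc, Epb4.1, Prdx2 and Bpgm, which are named for red cells and are also made in other cells, spanned 1.07-fold to 1.50-fold. Gata1, a regulator of erythroid genes, had 708, 845, 1368 and 831 counts (57.3, 77.9, 79.2 and 61.8 CPM), a span of 1.38-fold, and so did not follow the globin genes.

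Of the 5 tested genes outside the lists with the profile nearest to the summed adult globin genes, by Euclidean distance of log2 CPM centred over the 4 libraries, Aldh1l1, Stac3, Ang and Sult1a1 lay at distances of 1.05, 1.13, 1.23 and 1.30. These 4 had at most 58 counts in a library. For Csf1r, the 5 nearest genes were at distances of 0.337 to 0.605, and 0 genes were shared by the 2 sets of 5. The centred globin profile was -1.86 and 0.58 in WT replicates 1 and 2, and that of Csf1r 2.22 and -3.65. With profiles this far apart no gene could be near both, so the 0 carries no information. With 4 libraries these distances are a description.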

How the data were processed

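The data are 4 RNA libraries of sorted Treg cells, made with a low-input kit and grouped by the genotype and replicate number on the labels. The authors deposited raw counts of reads for each Ensembl gene and library, without normalization or pooling. All 4 columns of the table were used. The submitters' processing notes name Trim Galore 0.6.7, STAR 2.7.9a, featureCounts and mm10, while the methods name STAR and mm9. The annotation release, the strand setting and the treatment of multi-mapping reads were not given in the sources used here, and 14889 of the 47729 identifiers lie above the highest in GENCODE vM1, so a later annotation was used. Symbols were found for 32799 identifiers. Gene positions and promoters are from RefSeq (GRCm38.p6). A promoter was found for 6 of the 7 members. Each of these promoters was looked up in NCBIM37, where the RefSeq start of Hbb-bs fell 168 bases inside the GENCODE vM1 gene Hbb-b1 and that of Hbb-bt 73 bases inside Hbb-b2.

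From these counts, CPM was computed over library totals (10841939 to 17278448 counts, at which 3 counts are 0.174 to 0.277 CPM), with exact 95% Clopper-Pearson intervals. After filterByExpr, 12536 genes were left, which were given TMM factors and tested with edgeR 4.0.16 (quasi-likelihood, genotype only) in R 4.3.3, with Benjamini-Hochberg adjustment over all of them and a threshold of 0.05. The SE was taken from the log2 fold change over the root of edgeR's F. Because nothing says how many mice each library came from, p-values of the main fit measure the spread between these libraries. Those without a count filter leave out much of that spread for the globin genes. DESeq2 1.42.0, other scaling, other count filters, a replicate block and the omission of each library were the alternatives. The scripts were tested on simulated data. The lists and the rule for named genes (all members, listed erythroid genes with at least 10 counts in a library, Csf1r and the 5 macrophage genes with most counts, Tfrc, Foxp3 and the 5 nearest profiles, with a prior count of 2) were chosen with earlier results of these data known. Ahsp was not matched in the table, and some genes that this rule names are not reported here.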

Additional observations from a re-analysis of the deposited data

How the results depend on the processing

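The order of the summed level over the 4 libraries did not depend on TMM scaling (31.4, 172, 66.8 and 493 CPM in WT replicates 1 and 2 and TfR1-deficient replicates 1 and 2) or on the 2 globin genes with the most counts, without which the sums were 11.3, 65.4, 26.5 and 164 CPM. Relative to the mean over libraries, the erythroid to Csf1r ratio was 0.00990, 3.41, 0.527 and 0.0519, and with the summed macrophage list in place of Csf1r it was 0.126, 2.13, 0.968 and 0.780, so the size of the contrast depends on the denominator. The alpha share with only Hba-a1 as alpha gene was 41.9%, 51.6%, 51.2% and 43.8%, with the same 2 libraries lower. Between genotypes, edgeR called 0 genes at an adjusted p of 0.05 and 511 at an unadjusted p under 0.05 with a log2 fold change of at least 0.5 in size. DESeq2 called 44 genes at the adjusted threshold. Without a count filter edgeR called 262 genes and 5 members, and 1095 genes and 7 members at the unadjusted threshold. With at least 10 counts in every library, 4 members were tested and 0 passed at the unadjusted threshold, where 495 of 11152 genes did, against 1 member with all libraries and the usual filter. The cause of these differences was not tested. The replicate block gave 0 adjusted calls, 211 unadjusted ones and 4 unadjusted members. Whether same-numbered libraries are pairs was not given in the sources used here. Their deviations had a correlation of -0.609, which cannot settle this with 2 libraries per genotype. Crossed numbers, chosen after seeing the data, gave 439 adjusted and 1115 unadjusted calls and 0 adjusted members. With WT replicate 1, WT replicate 2, TfR1-deficient replicate 1 or TfR1-deficient replicate 2 left out, 0, 2, 4 and 0 members passed at the unadjusted threshold, beside 391 of 13357, 590 of 13373, 617 of 13231 and 496 of 13076 genes, and the log2 fold changes ran from -0.63 to 3.22 for Hba-a1, -0.52 to 3.12 for Hba-a2, -0.63 to 3.22 for Hbb-b1, -0.93 to 2.54 for Hbb-b2 and -0.86 to 4.75 for Alas2, the lowest of each without TfR1-deficient replicate 2. A lone library of a genotype was then assumed to vary like the others.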
